A study of Arabidopsis thaliana with 6 samples.

Results

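In anthers of Arabidopsis thaliana, 260 of 33027 loci stood out in a single library, the third of the Fe-deficient group, here called Fe-deficient 3. The loci were chosen by their level in CPM, the estimated counts of a locus divided by the total of its library and multiplied by 1000000. CPM is not corrected for gene length, so it compares libraries and not genes. A member had at least 2 CPM in Fe-deficient 3 and at least 4 times the highest level among the other 5 libraries. Of the 271 loci that met both limits, none was an organelle gene, and 11 named loci, 10 of them known iron-deficiency genes and the other the alternative oxidase AOX1A, were left out. The levels in Fe-deficient 3 therefore chose the members, and they are described below with no test.

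Anthers came from wild-type Col-0 plants in Hoagland medium, and every plant had iron for 28 days, first on plates for 10 days and then in hydroponics for 18 days. The Fe-deficient plants then grew for 18 days without added NaFe-EDTA, and the control plants grew for the same time with it. Each group has 3 libraries, made from total RNA of whole anthers at a stage that the labels give as PMC-TC, an abbreviation that was not interpreted. Whether the 3 libraries of a group are from different plants is not in the labels, so a p-value here covers no more than the spread among these libraries, part or all of which may be technical.

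Iron-starved plant cells switch on a set of transcription factors and small peptides that raise the expression of iron transporters, reductases and the enzymes that make nicotianamine, a metal chelator. Several of the enzymes of respiration and detoxification carry iron, and stressed mitochondria send signals to the nucleus that raise a common set of genes, among them alternative oxidases. Plants also hold large families of receptor kinases, pathogenesis-related proteins and detoxifying enzymes that respond to microbes, salicylic acid and chemicals. Among the members were a nicotianamine synthase, an alternative oxidase, receptor kinases, pathogenesis-related proteins and detoxifying enzymes; the genes of the iron-responsive peptides IMA1, IMA2 and IMA3 and of the reductase FRO3 met both limits but are among those left out by name.

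Fe-deficient 3 stood apart from the other libraries before any grouping of genes. With the same 2 limits and the same loci left out, the rule found 36 loci in Fe-deficient 1 and 12 in Fe-deficient 2, while controls 1, 2 and 3 gave 9, 0 and 4 loci. Fe-deficient 3 held 21666427 estimated counts, while the other libraries held 16818176 to 22710901. The summed level of 12 late pollen markers was 3781 CPM in Fe-deficient 3 and 8329 and 10029 CPM in Fe-deficient 1 and 2, while the controls had 1045 to 4185 CPM. The 17 tapetum markers summed to 3690 CPM in Fe-deficient 3 and to 2173 and 2075 CPM in Fe-deficient 1 and 2, while the controls had 5178 to 8908 CPM. Markers of late pollen and of the tapetum were thus detected in each library, at different summed levels. VGD1 and PPME1 alone gave 2035 and 1190 CPM of the late pollen sum in Fe-deficient 3. In bulk samples, fewer cells of a type and less RNA per cell cannot be told apart.

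The members together took 0.674% of the counts of Fe-deficient 3 and 0.0327% to 0.0658% in each other library. Their median level was 8.10 CPM in Fe-deficient 3 and 0.297 and 0.155 CPM in Fe-deficient 1 and 2, while controls 1, 2 and 3 had 0.319, 0.229 and 0.396 CPM. In Fe-deficient 3 the level was under 5 CPM for 89 members, between 5 and 20 CPM for 105, between 20 and 100 CPM for 53 and at least 100 CPM for 13. A level of 2 CPM equals 43.3 counts in that library. When libraries under 3 counts were set to 3 counts, the median ratio of Fe-deficient 3 to the highest other library was 10.4. That ratio was under 8 for 104 members, from 8 to under 16 for 74, from 16 to under 64 for 72 and at least 64 for 10. Counts were 0 in all other libraries for 6 members. The reference annotation calls 253 members protein coding and 6 pseudogenes, and 1 has no entry in it. Another annotated gene overlaps 50 members, on the opposite strand in 44 cases, and the sources used here do not say whether counting used strand.

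**Figure D1:**
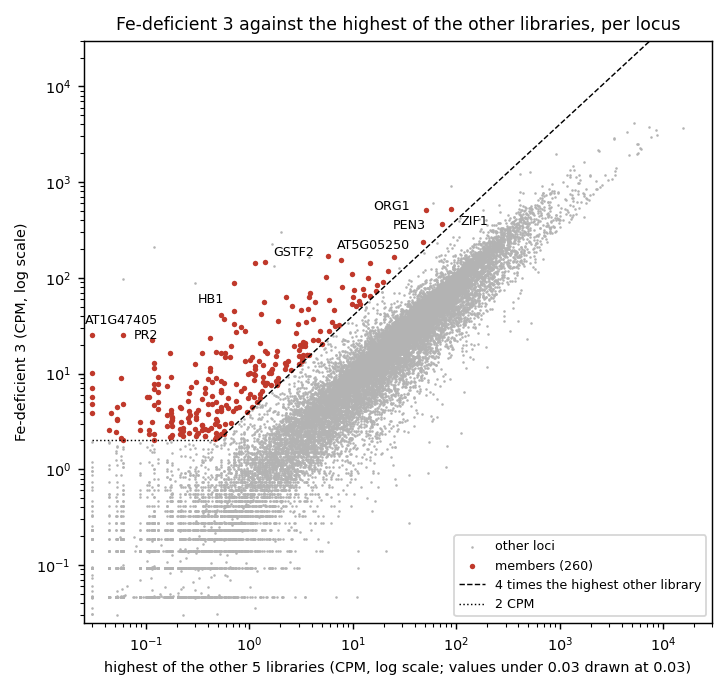
Each point is a locus, with its CPM in Fe-deficient 3 on the vertical axis and the highest CPM among the other 5 libraries on the horizontal axis, both on log scales. Red points are the 260 members, above the dashed line at 4 times the highest other library and the dotted line at 2 CPM. Grey points above both lines are the 11 loci left out by name. The members spread from near the lower limit up to ZIF1 at 529 CPM.

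Near the limits the choice was close. Just inside the ratio limit were AT1G34420, a leucine-rich repeat kinase, at 4.03 times the highest other library, PIL6, a phytochrome-interacting factor, at 4.04 times, and AT4G37030 at 4.06 times. Just outside it were AGP5 at 3.99 times, AT2G39400 at 3.97 times and the metacaspase MC2 at 3.94 times. Just inside the level limit were AT4G38560 and AT4G15660 at 2.03 CPM and MLO6 at 2.08 CPM. Just outside it, AT5G25260, PUB24 and AT2G43600 each had 1.94 CPM.

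Of 56 further genes of iron deficiency and iron transport (here the iron list), 3 were members. ZIF1 (AT5G13740), which carries nicotianamine into the vacuole, had 529 CPM in Fe-deficient 3 (exact 95% counting interval 519 to 539) and 89.8 and 73.4 CPM in Fe-deficient 1 and 2, while controls 1, 2 and 3 had 70.3, 73.3 and 70.2 CPM. Fe-deficient 3 was far above the rest, and Fe-deficient 1 was the next library. ORG1 (AT5G53450), an OBP3-responsive protein, had 512 CPM in Fe-deficient 3 and 50.6 and 35.2 CPM in Fe-deficient 1 and 2, while the controls had 30.0, 33.1 and 38.4 CPM. NAS4, a nicotianamine synthase, had 6.46 CPM in Fe-deficient 3 (5.44 to 7.62) and 0 and 0.0515 CPM in Fe-deficient 1 and 2, while the controls had 0.0532, 0 and 0.132 CPM. The related genes NAS1, NAS2 and NAS3 had at most 0.0923 CPM in Fe-deficient 3 and are not members. Over the whole list, Fe-deficient 3 was above every other library for 19 of the 56 genes and below every other library for 12. It was above every other library for 23.9% of 21490 loci that passed a filter on low counts in the other 5 libraries. The share below was not counted. Counts for this and the later lists, and for a run of loci described below, also take in genes that did not pass that filter. For the iron list 46 of the 56 passed it. The share of 23.9% is thus over an unlike set of loci. The rule also placed each member above, so no difference from that share is read. The transcription factor PYE, a regulator of the iron response, missed the ratio limit with 48.6 CPM in Fe-deficient 3, 3.65 times the highest other library.

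AT5G05250 codes for an uncharacterized protein. It had 168 CPM in Fe-deficient 3 (163 to 174) and 5.77 and 3.56 CPM in Fe-deficient 1 and 2, while controls 1, 2 and 3 had 0.585, 1.89 and 2.86 CPM. All 3 Fe-deficient libraries lay above all 3 controls, the highest of them by far being Fe-deficient 3. CGLD27, a protein of the DUF1230 family, had 109 CPM in Fe-deficient 3 and 9.75 and 4.17 CPM in Fe-deficient 1 and 2, while the controls had 1.92, 1.89 and 5.20 CPM. Fe-deficient 2 lay below control 3 there, so the groups overlapped. AT1G47405, a pseudogene on chromosome 1 from 17389679 to 17390781, had 25.4 CPM in Fe-deficient 3 (23.3 to 27.6) and no count in any other library, which made it at least 142-fold higher than a floor of 3 counts per library.

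The window of AT5G05250 is printed because it holds a pair of G-boxes, the sequence CACGTG bound by many bHLH and bZIP factors. Here and below, the sequence is the 250 bases before the annotated gene start in the TAIR10.1 assembly (RefSeq), read 5′ to 3′ on the gene's strand, with matches in capitals.
AT5G05250, chr5:1558487-1558736, minus strand: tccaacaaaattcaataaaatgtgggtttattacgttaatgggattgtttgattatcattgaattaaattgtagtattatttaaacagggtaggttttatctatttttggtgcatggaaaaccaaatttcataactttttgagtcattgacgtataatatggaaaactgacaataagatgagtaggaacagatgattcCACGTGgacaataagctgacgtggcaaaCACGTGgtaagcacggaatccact
The matches begin 52 and 24 bases before the start. Over windows from 250 bases before to 50 after the start, a G-box was found in 25 of 253 member windows (9.88%), against 7.81% of 26654 windows of all protein-coding genes. It was found in 5 of 11 windows of the loci left out by name.

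Mitochondrial dysfunction genes, a set that rises when respiration is disturbed, gave 4 members among 12 genes of the list: UPOX, UGT74E2, CRF6 and AOX1D. UPOX (AT2G21640), a mitochondrial protein used as a marker of oxidative stress, had 142 CPM in Fe-deficient 3 (137 to 147) and 8.32 and 6.13 CPM in Fe-deficient 1 and 2, while controls 1, 2 and 3 had 14.8, 14.0 and 10.6 CPM. Fe-deficient 1 and 2 lay below every control, on the other side from Fe-deficient 3. UGT74E2, a glucosyltransferase for an auxin, had 63.4 CPM in Fe-deficient 3 and 3.81 and 0.824 CPM in Fe-deficient 1 and 2, while the controls had 0.266, 0.687 and 3.13 CPM. CRF6, a cytokinin response factor, had 57.8 CPM in Fe-deficient 3 and 8.80 and 11.4 CPM in Fe-deficient 1 and 2, while the controls had 9.05, 11.2 and 11.0 CPM. AOX1D, an isoform of the alternative oxidase that bypasses part of the respiratory chain, had 4.75 CPM in Fe-deficient 3 (3.88 to 5.77) and 0.0595 and 0 CPM in Fe-deficient 1 and 2, while the controls had 0, 0.0572 and 0 CPM. Fe-deficient 3 was above every other library for 8 of the 12 genes, the 4 members by the rule, against 23.9% of the 21490 loci. It was below every other library for 1, the NADH dehydrogenase NDB2 being at 78.1 CPM there and at 91.0 to 116 CPM elsewhere.

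The mitochondrial dysfunction motif, searched as CTTG and CANG with 5 bases between them and bound by NAC factors in this response, was found in 21 of 253 member windows (8.30%), against 2.11% of all 26654 windows. The windows of UPOX, AT2G04050 and ADH1 are printed, UPOX as the member with the motif that had the highest CPM and the others because each holds 2 matches.
UPOX, chr2:9254128-9254377, plus strand: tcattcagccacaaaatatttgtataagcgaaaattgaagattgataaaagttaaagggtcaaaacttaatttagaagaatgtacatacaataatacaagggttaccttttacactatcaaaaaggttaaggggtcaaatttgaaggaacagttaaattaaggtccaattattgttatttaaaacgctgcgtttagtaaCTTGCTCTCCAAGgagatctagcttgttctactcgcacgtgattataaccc
AT2G04050, chr2:1339469-1339718, minus strand: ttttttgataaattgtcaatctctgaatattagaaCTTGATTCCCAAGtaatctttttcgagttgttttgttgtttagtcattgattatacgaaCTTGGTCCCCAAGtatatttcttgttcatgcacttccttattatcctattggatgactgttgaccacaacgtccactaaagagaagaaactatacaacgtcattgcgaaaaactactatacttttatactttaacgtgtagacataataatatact
ADH1, chr1:28975005-28975254, plus strand: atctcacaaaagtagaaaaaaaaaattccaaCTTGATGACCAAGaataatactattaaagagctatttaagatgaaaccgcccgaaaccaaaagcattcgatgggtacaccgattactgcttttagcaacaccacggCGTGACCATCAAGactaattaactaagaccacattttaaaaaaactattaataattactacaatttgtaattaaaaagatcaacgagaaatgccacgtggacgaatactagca
AT2G04050, a MATE efflux protein, had 88.2 CPM in Fe-deficient 3 and 0.178 and 0 CPM in Fe-deficient 1 and 2, while the controls had 0.0532, 0.0572 and 0.705 CPM. Other members with the motif were AT2G18193, an ATP-hydrolysing protein of the P-loop superfamily, AT5G54100, a membrane protein of the Band 7 family, SOT12, a sulfotransferase, UGT74E2 and CYP81D8. AT2G18193 had 89.7 CPM in Fe-deficient 3 and 17.7 and 19.7 CPM in Fe-deficient 1 and 2, while the controls had 18.5, 15.2 and 15.5 CPM. AT5G54100 had 83.9 CPM in Fe-deficient 3 and 8.35 to 17.3 CPM in the others, and SOT12 had 80.3 CPM in Fe-deficient 3 and 4.63 to 7.84 CPM in the others. SOT12 and AT5G54100 were picked with their values in view, and so were all genes named below that are in no list, cluster or family of at least 3 members and outside the 15 highest levels and 10 largest ratios.

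**Figure D2:**
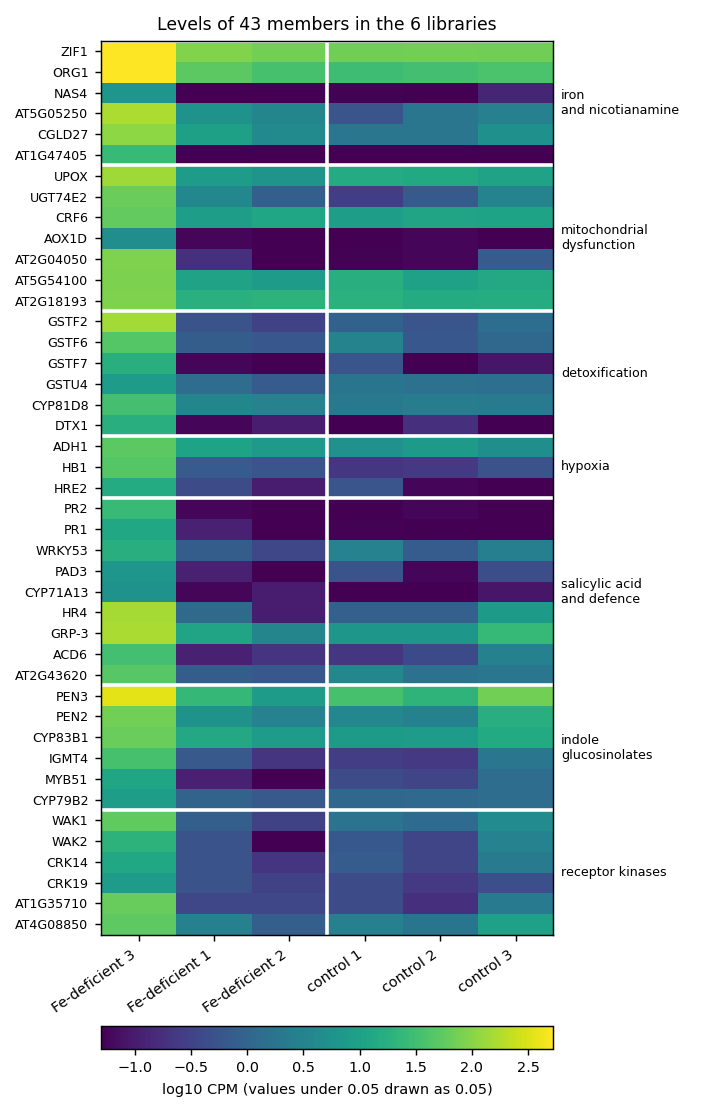
Rows are 43 members grouped by role and columns are the 6 libraries, Fe-deficient 3 first; colour gives log10 CPM, with values under 0.05 drawn as 0.05. AT2G04050, AT5G54100 and AT2G18193 stand in the mitochondrial group because their promoter windows hold the motif. In each row the first column is the brightest, which the choice of members fixed, while the order among the other columns differs between groups.

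Glutathione S-transferases, which couple glutathione to toxic compounds, were members at 6 of 45 loci, 29 of which reached 2 CPM in any library. Over all loci 260 of 33027 were members, and the family counts here and below stand beside that share. Only families with at least 3 members are named, so no excess is read from these counts. GSTF2 had 148 CPM in Fe-deficient 3 (143 to 153) and 0.535 and 0.309 CPM in Fe-deficient 1 and 2, while controls 1, 2 and 3 had 0.905, 0.572 and 1.41 CPM. The 5 other libraries were all close to 1 CPM or below it, and the ratio to the highest of them was 105. An annotated gene on the opposite strand, AT4G02510, overlaps GSTF2, and their reads cannot be told apart without strand. GSTF6 had 46.0 CPM in Fe-deficient 3 and 0.773 and 0.618 CPM in Fe-deficient 1 and 2, while the controls had 3.19, 0.630 and 1.14 CPM. Its neighbour GSTF7 had 16.4 CPM in Fe-deficient 3 and 0.0595 and 0.0515 CPM in Fe-deficient 1 and 2, while the controls had 0.585, 0 and 0.0881 CPM. These are similar genes, and the split of reads between them is uncertain.

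GSTF6, GSTF7, GSTU4 and the cytochrome P450 CYP81D8 are the 4 members among 9 genes of the chemical detoxification list. Of the 9 genes, Fe-deficient 3 was above every other library for 5, the 4 members by the rule, against 23.9% of the 21490 loci, and below for 1. CYP81D8 had 34.2 CPM in Fe-deficient 3 and 3.51 and 2.99 CPM in Fe-deficient 1 and 2, while the controls had 2.13, 2.52 and 2.29 CPM. As with AT5G05250, each Fe-deficient library lay above each control. GSTU4 had 8.45 CPM in Fe-deficient 3 and 1.37 and 0.721 CPM in Fe-deficient 1 and 2, while the controls had 1.81, 1.66 and 1.45 CPM. The glutathione transferase GSTU19 of the same list had 171 CPM in Fe-deficient 3, inside the range of 141 to 232 CPM of the others. Among 55 MATE efflux loci, which export small compounds, 37 reached 2 CPM in any library and 3 neighbours on chromosome 2 were members. They are AT2G04050, AT2G04070 and DTX1, which had 16.5 CPM in Fe-deficient 3 and at most 0.172 CPM elsewhere. UDP-glycosyltransferases gave 6 members of 145 loci and cytochrome P450 enzymes 10 of 239, of which 104 and 118 reached 2 CPM in any library.

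Hypoxia genes, which respond to low oxygen, gave 3 members of 12. HB1, a hemoglobin, had 45.6 CPM in Fe-deficient 3 (42.8 to 48.5) and 0.714 and 0.567 CPM in Fe-deficient 1 and 2, while controls 1, 2 and 3 had 0.213, 0.229 and 0.528 CPM. All Fe-deficient libraries lay above all controls, with a gap of less than 0.1 CPM between Fe-deficient 2 and control 3. ADH1, the alcohol dehydrogenase of fermentation, had 50.4 CPM in Fe-deficient 3 and 10.6 and 7.63 CPM in Fe-deficient 1 and 2, while the controls had 5.43, 7.84 and 5.11 CPM. HRE2, an ethylene response factor that the reference names ERF71, had 14.95 CPM in Fe-deficient 3 and 0.416 and 0.103 CPM in Fe-deficient 1 and 2, while the controls had 0.585, 0.0572 and 0.0440 CPM. PDC1, which acts just before ADH1, had 28.8 CPM in Fe-deficient 3, inside the range of 21.4 to 43.3 CPM of the others. The related PDC2, not a member, had 56.9 CPM in Fe-deficient 3, above the 16.6 to 26.9 CPM of the others. Fe-deficient 3 was above every other library for 8 of the 12 genes, the 3 members by the rule, against 23.9% of the 21490 loci, and below for none.

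Salicylic acid and defence genes gave 5 members of 16: PR1, PR2, PAD3, CYP71A13 and WRKY53. PR2 (BGL2), a glucanase that attacks fungal walls, had 25.3 CPM in Fe-deficient 3 (23.2 to 27.5) and 0.0595 and 0 CPM in Fe-deficient 1 and 2, while controls 1, 2 and 3 had 0, 0.0572 and 0 CPM. PR1, the usual marker of salicylic acid signalling, had 12.8 CPM in Fe-deficient 3 (11.4 to 14.4) and 0.119 and 0 CPM in Fe-deficient 1 and 2, while the controls had 0.0532, 0 and 0 CPM. Outside Fe-deficient 3 both were below the floor of 3 counts in each library. WRKY53, a transcription factor, had 17.58 CPM in Fe-deficient 3 and 0.773 and 0.361 CPM in Fe-deficient 1 and 2, while the controls had 3.03, 0.744 and 2.77 CPM. PAD3 and CYP71A13, which make the antifungal compound camalexin, had 6.46 and 5.63 CPM in Fe-deficient 3, and at most 0.532 and 0.103 CPM elsewhere. Fe-deficient 3 was above every other library for 13 of the 16 genes, the 5 members by the rule, against 23.9% of the 21490 loci, and below for none. Among the 13, FRK1, FMO1 and ALD1 were under 2 CPM in Fe-deficient 3, and ICS1 was only 1.14 times the highest other library. EDS1, an early regulator of resistance in the same list, had 20.6 CPM in Fe-deficient 3 and 7.79 and 7.88 CPM in Fe-deficient 1 and 2, while the controls had 15.4 to 19.8 CPM. Its level in Fe-deficient 3 was thus only 1.04 times the highest other library.

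Several further members belong to defence by what they are known for. HR4, a homolog of the mildew resistance protein RPW8, had 153 CPM in Fe-deficient 3 and 1.25 and 0.103 CPM in Fe-deficient 1 and 2, while the controls had 0.851, 0.858 and 7.66 CPM. GRP-3, a glycine-rich protein that binds the wall-associated kinase WAK1, had 163 CPM in Fe-deficient 3 and 11.4 and 3.35 CPM in Fe-deficient 1 and 2, while the controls had 6.76, 6.87 and 24.9 CPM. ACD6, an ankyrin membrane protein that promotes salicylic acid responses, had 32.7 CPM in Fe-deficient 3 and 0.119 and 0.206 CPM in Fe-deficient 1 and 2, while the controls had 0.213, 0.401 and 2.95 CPM. In all 3 genes control 3 was the highest library after Fe-deficient 3. Chitinases, which cut fungal walls, gave 3 members of 23 loci, 12 of which reached 2 CPM in any library. Of these members AT2G43620 had 47.4 CPM in Fe-deficient 3 and 0.773 and 0.618 CPM in Fe-deficient 1 and 2, while the controls had 3.67, 1.66 and 1.89 CPM. There control 1, not control 3, was the next library. The peroxidase AT4G36430 was the same in this respect, with 99.5 CPM in Fe-deficient 3 and 2.91 and 2.22 CPM in Fe-deficient 1 and 2, while the controls had 14.2, 1.72 and 2.60 CPM.

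The W-box, searched as TTGACC or TTGACT and bound by WRKY factors, was found in 140 of 253 member windows (55.3%), against 32.4% of all 26654 windows. Shown are windows of AT2G43620 and of AT3G22060, a protein related to receptor kinases, each with 3 matches in 250 bases and no annotated exon inside.
AT2G43620, chr2:18095094-18095343, minus strand: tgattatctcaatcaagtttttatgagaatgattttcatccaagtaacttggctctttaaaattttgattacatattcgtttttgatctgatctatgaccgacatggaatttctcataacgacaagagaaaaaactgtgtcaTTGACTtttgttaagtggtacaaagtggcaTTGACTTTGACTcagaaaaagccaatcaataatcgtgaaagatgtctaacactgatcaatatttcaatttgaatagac
AT3G22060, chr3:7770649-7770898, plus strand: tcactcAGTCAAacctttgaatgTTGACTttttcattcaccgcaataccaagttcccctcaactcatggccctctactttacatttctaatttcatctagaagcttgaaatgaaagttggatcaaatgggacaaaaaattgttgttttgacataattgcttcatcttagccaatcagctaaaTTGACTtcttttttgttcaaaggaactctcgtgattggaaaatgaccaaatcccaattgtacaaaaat
AT3G22060 had 15.1 CPM in Fe-deficient 3 and 1.25 and 0.361 CPM in Fe-deficient 1 and 2, while the controls had 1.81, 0.515 and 1.1 CPM. In all, 8 motifs were searched on both strands. The heat element GAANNTTC was found in 19.4% of member windows, against 11.5% of all. Shares of the other 4 were closer together, at 63.2% of member windows against 61.7% of all for the E-box CANNTG, which includes every G-box, and 41.5% against 39.0% for the SPL7 core GTAC. The TGA core TGACG was found in 25.7% of member windows, against 23.1% of all, and the ABRE, ACGTGTC or ACGTGGC, which can overlap a G-box, in 6.32%, against 7.78%. The TGA core and the W-box share 4 letters but not a whole match. A match describes the letters in a window and shows neither a bound factor nor a cause.

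**Figure D3:**
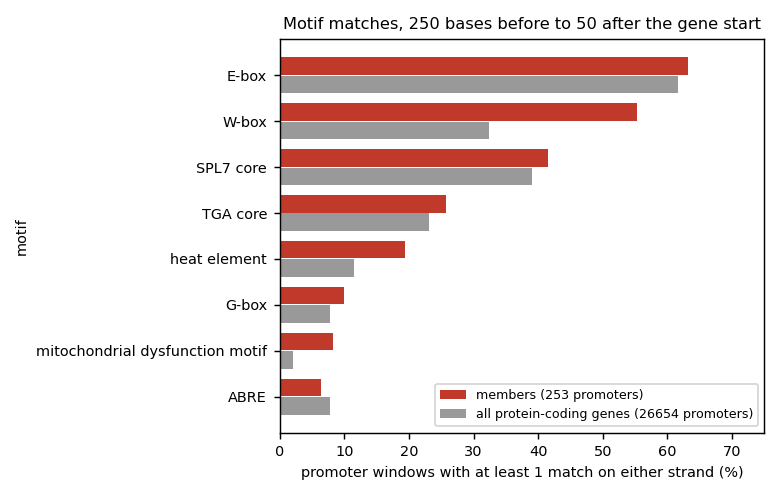
Bars give the percentage of promoter windows with at least 1 match of each motif on either strand, in red for 253 members and in grey for 26654 protein-coding genes. The widest gap in percentage points is at the W-box (55.3% and 32.4%), and the widest ratio is at the mitochondrial dysfunction motif (8.30% and 2.11%).

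The next members are known for their part in indole glucosinolates, tryptophan-derived defence compounds. They were picked by name with their values in view, no list of the pathway was drawn up, and its genes that are not members were not counted. CYP79B2, which starts the pathway from tryptophan, had 9.14 CPM in Fe-deficient 3 and 0.951 and 0.670 CPM in Fe-deficient 1 and 2, while controls 1, 2 and 3 had 1.12, 1.2 and 1.36 CPM. CYP83B1, the next enzyme, had 64.7 CPM in Fe-deficient 3 and 13.6 and 8.19 CPM in Fe-deficient 1 and 2, while the controls had 7.66, 8.47 and 14.7 CPM. MYB51, a regulator of the pathway, had 12.1 CPM in Fe-deficient 3 and 0.0515 to 1.36 CPM in the others. The methyltransferase IGMT4 had 35.3 CPM in Fe-deficient 3 and 0.206 to 1.89 CPM in the others. PEN2, the hydrolase that activates these compounds, had 72.5 CPM in Fe-deficient 3 and 5.89 and 2.99 CPM in Fe-deficient 1 and 2, while the controls had 3.67, 2.92 and 16.8 CPM. PEN3 (AT1G59870), the ABC transporter that works with PEN2, had 368 CPM in Fe-deficient 3 (360 to 376) and 23.7 and 8.40 CPM in Fe-deficient 1 and 2, while the controls had 35.2, 20.7 and 72.9 CPM. PEN3 varied among the other libraries as well, and in PEN2 and PEN3 control 3 was next to Fe-deficient 3.

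Receptor-type proteins made up several families. Cysteine-rich receptor-like kinases were members at 8 of 39 loci, wall-associated kinases at 3 of 12, receptor-like proteins at 5 of 52, resistance proteins with a TIR domain at 6 of 128 and leucine-rich repeat proteins at 7 of 223. In that order 24, 6, 30, 78 and 171 of the loci reached 2 CPM in any library. Over all loci 260 of 33027 were members, and families were named for having at least 3 members. WAK1, a kinase that binds pectin in the wall, had 56.0 CPM in Fe-deficient 3 and 0.832 and 0.309 CPM in Fe-deficient 1 and 2, while the controls had 1.70, 1.26 and 4.32 CPM. Its neighbours WAK2 and WAK3 had 19.8 and 3.23 CPM in Fe-deficient 3. The leucine-rich repeat kinase AT1G35710 had 62.4 CPM in Fe-deficient 3 and 0.357 and 0.361 CPM in Fe-deficient 1 and 2, while the controls had 0.426, 0.172 and 2.25 CPM.

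Members lay close together in the genome more than once: 67 of them had another member within 5 loci, in 26 clusters. How many of 260 other loci would lie so close was not counted, so no excess is read from this. The longest run was on chromosome 4 from 12117491 to 12174297, where 7 of 17 loci were members (CRK5, CRK6, EP1, CRK13, CRK14, CRK18 and CRK19). Fe-deficient 3 was the highest library for 14 of the 17, against 23.9% of the 21490 loci. For the 7 members the rule fixed this, and the run was bounded by its first and last member. CRK12, which is not a member, is among the 14 with only 0.0923 CPM in Fe-deficient 3. CRK14 had 12.8 CPM in Fe-deficient 3 and 0.535 and 0.206 CPM in Fe-deficient 1 and 2, while controls 1, 2 and 3 had 0.745, 0.343 and 2.20 CPM. CRK10, which is not a member, had 46.1 CPM in Fe-deficient 3 and 8.03 and 3.66 CPM in Fe-deficient 1 and 2, while the controls had 15.4, 7.73 and 17.3 CPM, so Fe-deficient 3 was 2.67 times the next library. CRK8 and CRK16 in the same run had no more in Fe-deficient 3 than in the highest other library. A second run on chromosome 4, from 8925571 to 8938124, held 5 neighbouring loci of the thioredoxin superfamily, AT4G15660 to AT4G15700, and all 5 were members, with 2.03 to 5.54 CPM in Fe-deficient 3 and at most 0.979 CPM elsewhere. Loci in such runs are similar in sequence, so the division of reads between them is uncertain.

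**Figure D4:**
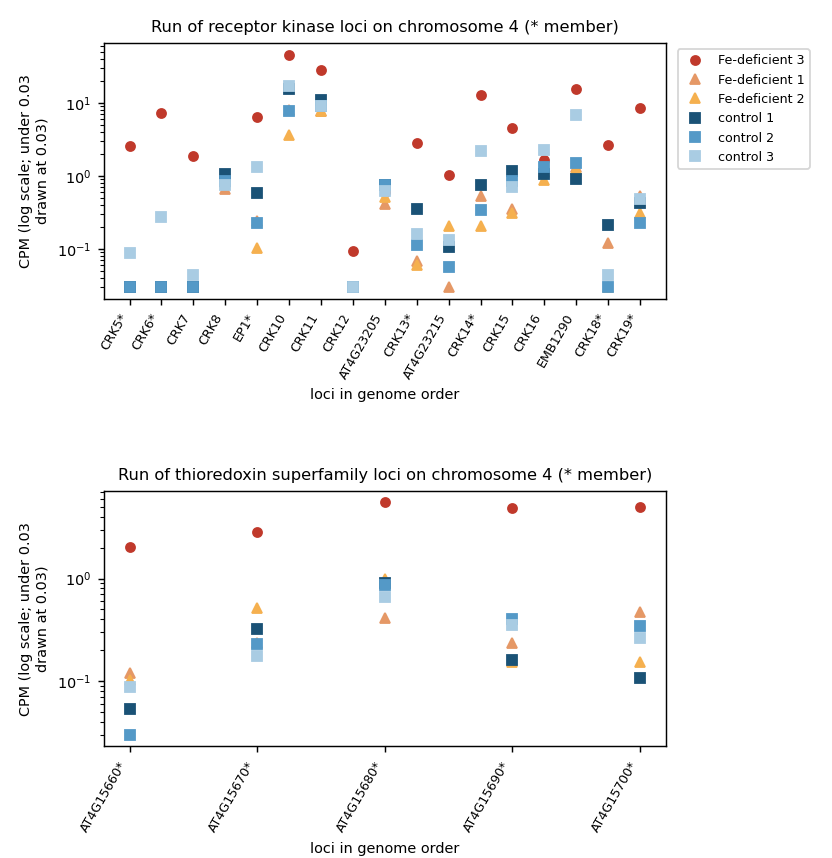
Points give the CPM of each locus (log scale, values under 0.03 drawn at 0.03) in genome order along the longest runs, 17 loci above and 5 below, with a colour for each library and an asterisk at each member. Fe-deficient 3 lies on top for 14 of 17 loci and for 5 of 5, which the rule fixed for the 7 members above and all 5 below.

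The remaining clusters were smaller. They joined WAK1, WAK2 and WAK3; DTX1, AT2G04050 and AT2G04070; 3 chitinases; and AT2G14230, AT2G14245 and AT2G14247, uncharacterized loci of chromosome 2. AT2G14247 had 143 CPM in Fe-deficient 3 and 1.13 and 0.103 CPM in Fe-deficient 1 and 2, while controls 1, 2 and 3 had 0.319, 0.343 and 0.484 CPM. GSTF6 and GSTF7, HR3 and HR4, and PEN2 and BGLU17 were pairs. The share of loci that were members ranged from 0.565% on chromosome 5 to 0.984% on chromosome 2.

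Other members with large ratios came from various families. AT1G03990, a fatty alcohol dehydrogenase, had 41.0 CPM in Fe-deficient 3 and 0.352 to 0.535 CPM in the others. AT2G03130, annotated with a ribosomal L12 or Clp adaptor domain, had 22.6 CPM in Fe-deficient 3 and at most 0.114 CPM in the others. SESA2, a storage albumin of seeds, had 10.2 CPM in Fe-deficient 3 (8.86 to 11.6) and no count elsewhere, at least 56.9-fold above the floor. ZIP7, a metal transporter picked with its values in view, had 7.75 CPM in Fe-deficient 3 and 0.119 and 0 CPM in Fe-deficient 1 and 2, against 0 CPM in each control. High levels were reached by 3 further members of the highest 15. AT1G78830, a mannose-binding lectin, had 239 CPM in Fe-deficient 3 and 11.1 to 47.6 CPM in the others, AT5G44020, an acid phosphatase, had 118 CPM and 1.55 to 21.7 CPM in the others, and AT2G25510 had 102 CPM and 0.401 to 5.50 CPM in the others.

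In all, 19 members belonged to 1 of 16 response lists. No member was found among 10 iron storage genes, nor in the lists of copper, zinc, phosphate and sulfur supply, oxidative stress, jasmonate, abscisic acid, senescence and heat shock. Of the 10 storage genes, 7 were lower in Fe-deficient 3 than in every other library, a share not counted over all loci. The 7 lists of cell type markers held no member either. Vascular markers nevertheless moved with the members: 11 of 14 were higher in Fe-deficient 3 than in every other library, by at most 2.14 times, against 23.9% of the 21490 loci. They summed to 618 CPM in Fe-deficient 3 and 433 and 359 CPM in Fe-deficient 1 and 2, while controls 1, 2 and 3 had 333, 352 and 504 CPM. AHA3, which was not higher in Fe-deficient 3, held 238 of the 618 CPM and had 228 to 246 CPM in the others. Green tissue markers summed to 6253 CPM in Fe-deficient 3 and 3475 and 3247 CPM in Fe-deficient 1 and 2, while the controls had 5093, 4928 and 8243 CPM. Of these 11 markers, 2 were higher in Fe-deficient 3 than in every other library, AP1 and LHCB1.2, and 0 were lower. RBCS1A alone gave 2143 of the 6253 CPM. AP1 had 104 CPM in Fe-deficient 3 and 89.3 CPM in control 3, and 11.6 to 19.7 CPM in the others. The 5 root markers summed to 11.8 CPM in Fe-deficient 3, below the 23.1 to 47.6 CPM of the others, and COBL9 alone gave 11.4 of the 11.8 CPM. The part of vascular or green tissue in the members' levels was not tested.

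Fe-deficient 1 and 2 were also compared with the controls. The rule used these 5 libraries too, since no member could have a level in any of them above that of Fe-deficient 3 divided by 4, so the choice of members limited the values compared. The members' shares and medians are therefore given beside those of all loci as a description, and nothing is read from the difference between them. Of the 260 members, 108 passed the filter on low counts in these 5 libraries and 152 did not. Those tested had a median of 1.33 CPM, against 19.2 CPM for all 21490 tested loci. No member passed an adjusted p of 0.05 in edgeR's quasi-likelihood test, and no locus did (0.0% called in either direction). At an unadjusted p under 0.05, 11 of the 108 were higher (10.2%), against 16.9% of all loci, and 11 were lower (10.2%), against 14.7%. DESeq2 called 4 of 119 members higher (3.36%), against 12.6% of all loci, and 4 lower (3.36%), against 9.14%. The median log2 fold change was -0.38 over the 108 members and -0.02 over all tested loci, and 45.4% of members and 48.2% of all loci were positive. Late pollen markers moved with this comparison, by CPM 12 of 12 being above all controls in both libraries, against 15.9% of tested loci. Tapetum markers did so too, 16 of 16 tested being below, against 44.8% of tested loci. The part of these markers in the comparison was not tested. The members' median was -1.18 without Fe-deficient 1 and 0.26 without control 3, so its size rested on single libraries and its direction on control 3.

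The lists that gave members held no call in this comparison either, and the counts below stand against 16.9% of all tested loci higher and 14.7% lower at the same unadjusted p. At an unadjusted p under 0.05, edgeR put 10 of 46 tested genes of the iron list higher and 1 lower, with a median log2 fold change of 0.12, while by CPM 6 lay above all controls in both libraries, against 15.9% of all loci, and 14 below, against 44.8%. Of 10 tested mitochondrial dysfunction genes 3 were higher and none lower (median 0.36), and of 8 tested detoxification genes 4 were higher and 1 lower (median 0.69). Of 10 tested hypoxia genes 3 were higher and none lower (median 0.27). Of 9 tested salicylic acid and defence genes 1 was higher and 2 were lower (median -0.93), and by CPM 7 of the 9 lay below all controls in both libraries, against 44.8% of all loci, a share that is 26.8% on TMM-scaled CPM. Lists of 8 to 10 tested genes are small, and no difference from all loci is read from these counts.

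The lowest p-values upward were those of AT1G72060, ZIF1, AT4G37030 and WRKY25. AT1G72060, an inhibitor of serine proteases, had 20.6 CPM in Fe-deficient 3 and 3.45 and 2.06 CPM in Fe-deficient 1 and 2, while controls 1, 2 and 3 had 0.106, 0.114 and 0.484 CPM. The groups did not overlap, and its log2 fold change in Fe-deficient 1 and 2 was 3.69 (SE 0.69, edgeR adjusted p = 0.0859). For ZIF1 it was 0.43 (SE 0.13, edgeR adjusted p = 0.109), with both libraries above all controls. AT4G37030 had 0.95 (SE 0.30) and WRKY25, a stress transcription factor, 1.90 (SE 0.61). Downward they were AT1G05135, with -2.67 (SE 0.71), the auxin-responsive SAUR gene AT1G56150, with -3.07 (SE 0.84), the peroxidase AT5G64120, with -2.19 (SE 0.63), and AT3G48650, with -3.30 (SE 0.98). AT1G56150 had 17.35 CPM in Fe-deficient 3 and 0.119 and 0.103 CPM in Fe-deficient 1 and 2, while the controls had 1.86, 0.458 and 1.1 CPM. Its libraries Fe-deficient 1 and 2 were thus on the opposite side of the controls from Fe-deficient 3.

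Both Fe-deficient 1 and 2 lay above all controls in CPM for 11 of the 108 tested members (10.2%), against 15.9% of tested loci, and below all controls for 24 (22.2%), against 44.8%. Over all tested loci, CPM on library totals was lower in these 2 libraries than in the controls by a median of 0.25 on the log2 scale. With TMM-scaled library sizes, which remove most of that shift, 18 members lay above (16.7%), against 27.8% of loci, and 19 of the 108 below, against 26.8%. On either scale ZIF1, AT5G05250, DIN2, HB1, CYP81D8, AT1G22890, AT3G45730, AT1G72060, AT4G37030, WRKY25 and the aldehyde oxidase AO1 were above. DIN2, a glucosidase of dark-treated leaves, had 62.4 CPM in Fe-deficient 3 and 9.99 and 7.26 CPM in Fe-deficient 1 and 2, while the controls had 0.638, 3.09 and 3.57 CPM. On either scale UPOX, WAK1 and ERD6, a sugar transporter, were below.

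The members also differed in level among the other libraries. Fe-deficient 1 was above Fe-deficient 2 for 90 of the 108 (83.3%), against 45.4% of tested loci. Control 3 was above controls 1 and 2 for 68 (63.0%), against 34.6% of loci, and control 1 was the highest control for 29 (26.9%), against 36.6%. On TMM-scaled CPM the shares of members were 83.3% for Fe-deficient 1 and 63.9% for control 3, against 48.1% and 35.6% of loci. The median difference of the members from the control mean was 0.25 and -0.76 in Fe-deficient 1 and 2 (log2, TMM-scaled), while controls 1, 2 and 3 had -0.11, -0.51 and 0.51, and the median of all loci was within 0.03 of 0 in each. The sums of vascular and of green tissue markers were likewise higher in Fe-deficient 1 than in Fe-deficient 2. Both were highest in control 3 among the controls, and their part in this order was not tested. Each library is a single one here, so these shares carry no test.

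**Figure D5:**
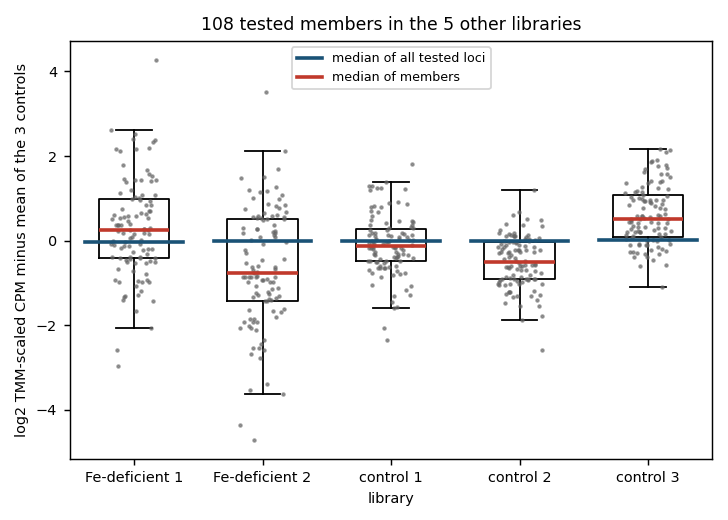
Grey points are the 108 tested members, as log2 TMM-scaled CPM minus the mean of the 3 controls, in each library other than Fe-deficient 3; boxes give quartiles, whiskers reach up to 1.5 box lengths, red lines are medians of members and blue lines medians of all tested loci. The red line lies above the blue one in Fe-deficient 1 (0.25) and control 3 (0.51), and below it in Fe-deficient 2 (-0.76) and control 2 (-0.51).

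With all 6 libraries in the fit, edgeR tested 108 members among 21267 loci and called none of them and no other locus (0.0%). That contrast holds the library by which the members were chosen, so nothing is read from it.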

How the data were processed

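RNA-seq of 6 anther libraries was used. Per the submitters' processing notes, Trimmomatic 0.35, Salmon 0.12.0 and the TAIR10 build were used; the sources used here do not give the handling of strand. Each deposited file is, per the file headers, a Salmon table of 41086 transcripts with the authors' estimated counts and TPM; the deposited lengths and effective lengths, another measure, served no test. Estimated counts were summed to 33027 loci and rounded for the tests, and 75.3% of the deposited values were whole. TPM served in alternatives only.

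Groups came from the sample titles. CPM is the summed count over the library total. Names, coordinates and promoter windows are those of TAIR10.1; 32341 loci were found there. Of 39214 transcripts with the same name, 37.7% had the same length in that annotation, so its gene starts may differ from those behind the files. No pair among 15 pairs of libraries was identical. Fe-deficient 1 and 2 were compared with the controls by edgeR 4.0.16's quasi-likelihood test (TMM factors, filterByExpr, Benjamini-Hochberg at 0.05; R 4.3.3), and the procedure was tested on simulated data. DESeq2 1.42.0, limma 3.58.1, other scalings, filters and limits, a replicate block and each library left out were alternatives. Fold changes are on the log2 scale. Intervals are exact Poisson intervals at 95%; they and the floor of 3 counts cover counting error only. Figures were drawn in Python 3.11.15 with matplotlib 3.10.9.

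The members and all gene lists were chosen with earlier results of these data known. All 328 list loci were in the files, and 298 carried a name found in the reference. Named are the 15 members with the highest CPM, the 10 with the largest ratio, list members, loci nearest the limits, the 4 lowest p-values in each direction, and members of clusters and of families with at least 3 members.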

Additional observations from a re-analysis of the deposited data

How the results depend on the processing

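The 260 members became 244 with TMM-scaled library sizes, all of them members, 248 with DESeq2 size factors (246 shared), and 295 with TPM (218 shared). A CPM minimum of 1 gave 320 loci and one of 10 gave 115; a ratio of 2 gave 573 loci and one of 8 gave 156. Leaving out 1 of the other libraries gave 264 to 388 loci, the most without control 3. Fe-deficient 1 and 2 against controls gave 0 calls over all loci in edgeR, also with DESeq2 size factors, without a filter and in limma-voom, but 4704 in DESeq2 and 1358 in limma on log2(TPM + 1), of which 8 and 1 were members. Leaving out 1 library gave 0 to 92 calls, the 92 without control 3, and 0 members. With all 6 libraries DESeq2 called 717 loci, 13 of them members, and leaving out 1 library gave 0. Members above all controls numbered 18 with TMM and 7 with TPM in place of 11, and 12 to 26 with 1 library left out, 26 without Fe-deficient 2 and 22 without control 3. Members below numbered 19 with TMM and 30 with TPM in place of 24, and 24 to 57 with 1 library left out, 57 without Fe-deficient 1 and 40 without control 2. The members' median log2 fold change turned from -0.38 to 0.26 without control 3. The cause of these moves was not tested. Same-numbered libraries of the groups had correlations of -0.18, 0.40 and -0.13 in their deviations from the group means. Each mean includes the library itself, so these values cannot show whether the numbers pair libraries. With the replicate number as a block, Fe-deficient 1 and 2 against controls gave 322 loci and 0 members, a median log2 fold change of the members of 0.06 and, with all 6 libraries, 0 loci. Single libraries and low counts limit the members: 152 of 260 were too low to be tested outside Fe-deficient 3.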
